A study of Rattus norvegicus with 46 samples.

Results

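The genes described here are 37 symbols that mark T cells and natural killer (NK) cells, followed in rat skin before and after irradiation. The array annotation gave a feature for 35 of the 37 symbols, out of 23188 non-control features in all. Tigit and Eomes had none and carry no value. Members were taken by symbol from a list that was chosen with earlier results of these data known.

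Skin of 9 Sprague-Dawley rats was profiled on 46 single-colour Clariom S arrays, from 5 mm punches of the abdomen that were taken repeatedly from the same animals. Irradiated RTA-408 skin came from 3 rats that received RTA-408, an activator of the transcription factor NRF2, in DMSO. Irradiated vehicle skin came from 3 other rats that received DMSO, and unirradiated vehicle skin came from 2 rats at a time that received DMSO with sham irradiation. Baseline was 6 untreated biopsies of day -10 from rats of all 3 arms. Each arm was biopsied on days -4, 1, 3, 7 and 14, and in unirradiated skin another rat took the place of 1 of the pair on days 7 and 14. Injections fell on days -7, -5, -3 and 0, which were the days of radiation or sham. The irradiated rats received 40 Gy of 6 MeV electrons in 4 fractions of 10 Gy, so the day -4 biopsy fell within the course. The drug's own effect without radiation was not part of the arms analysed here. Sex and age are not given in the sources used here.

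T cells recognise antigen through the T cell receptor, which signals through the CD3 chains, and they are divided by the coreceptors CD4 and CD8. NK cells lack that receptor and act through activating and inhibitory receptors of the killer lectin family. Both cell types kill with granzymes and perforin, and both home to skin along chemokine gradients. Rat skin also holds resident gamma delta T cells in the epidermis. In the rat, monocytes and macrophages carry CD4 as well, and NK cells can carry the CD8 alpha chain.

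All values are log2 signals on the scale of the deposited table, which is wider than that of raw intensities, so differences are given in log2 units of that scale and not as folds. The array medians lay between 6.84 and 6.95. The level of a feature that matches no transcript was read from 1153 negative control features, whose median lay between 5.78 and 6.52 over the 46 arrays and whose 95th percentile lay between 9.63 and 10.85. A group whose arrays were all at or below their own negative control median is treated as having no measurable level, and a difference from such a group uses the median in place of its signal and reads "at least". The p-value beside such a bound is that of the difference in the deposited signals, and the bound itself was not tested. A difference is called at an adjusted p under 0.05 in limma, adjusted by Benjamini-Hochberg over all 23188 features. The p-values measure the spread between these biopsies, which are 2 or 3 rats per arm and day.

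Some arrays stood apart before any comparison. Replicate 3 of irradiated vehicle skin on day 14, from rat 320, had a mean of 7.44 over the 35 T and NK cell genes, against 5.29 and 6.08 in the other 2 arrays of its group. It also had the highest mean over the macrophage and monocyte genes of all arrays, 15.63. Its mean over skeletal muscle genes was 14.43, against 17.16 and 17.01 in the other 2. The counts of members called and the tests over days that include it are therefore also given without it. The spike-in features parted the arrays into 3 sets, of 18, 10 and 18 arrays. All baseline arrays were in set I and none of the arrays of days 7 and 14 was, while irradiated and unirradiated skin shared set III on those days. The mean over skeletal muscle genes ranged from 6.19 to 18.65 between punches.

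The 5 genes that were called higher in both irradiated arms on both day 7 and day 14, each against baseline, were Cd2, Cd28, Cd4, Icos and Klrk1. Their promoters are shown because these are the genes on which the later results turn, and because Cd28 and Icos, which encode related costimulatory receptors of T cells, lie on the same chromosome. The sequences are those of RefSeq on build GRCr8, which held an entry for 28 of the 37 symbols. Each runs 5′ to 3′ on the strand of the gene, from 250 bases before the annotated start through the first 50 bases from it. Capitals mark matches to the RUNX core TGTGGT in Cd2, Cd28 and Klrk1, and to the ETS-type sequence AGGAAG in Icos, searched on both strands, so that a match on the other strand reads ACCACA or CTTCCT. Cd2, encoding an adhesion receptor of T and NK cells, is given at chr2:191412610-191412909 on the minus strand. Cd28 is given at chr9:69660066-69660365 on the plus strand. Icos is given at chr9:69877549-69877848 on the plus strand. Klrk1, which encodes the activating receptor NKG2D, is given at chr4:164778333-164778632 on the minus strand. No entry is shown for Cd4.
Cd2: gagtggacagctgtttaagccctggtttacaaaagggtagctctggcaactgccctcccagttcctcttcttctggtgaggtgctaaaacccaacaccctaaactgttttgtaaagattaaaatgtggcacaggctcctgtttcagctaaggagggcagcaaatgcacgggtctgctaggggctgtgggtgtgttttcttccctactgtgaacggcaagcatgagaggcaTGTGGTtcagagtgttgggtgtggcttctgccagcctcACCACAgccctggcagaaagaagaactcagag
Cd28: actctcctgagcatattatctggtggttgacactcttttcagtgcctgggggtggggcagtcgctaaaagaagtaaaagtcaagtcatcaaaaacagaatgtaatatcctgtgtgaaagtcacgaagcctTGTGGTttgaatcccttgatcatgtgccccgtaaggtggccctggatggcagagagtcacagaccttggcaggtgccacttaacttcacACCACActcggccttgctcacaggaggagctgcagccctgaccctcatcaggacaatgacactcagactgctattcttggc
Icos: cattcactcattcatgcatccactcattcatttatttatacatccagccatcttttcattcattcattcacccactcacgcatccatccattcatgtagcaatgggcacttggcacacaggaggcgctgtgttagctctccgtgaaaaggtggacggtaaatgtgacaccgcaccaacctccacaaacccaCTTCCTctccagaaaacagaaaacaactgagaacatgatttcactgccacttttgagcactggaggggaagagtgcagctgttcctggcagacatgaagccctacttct
Klrk1: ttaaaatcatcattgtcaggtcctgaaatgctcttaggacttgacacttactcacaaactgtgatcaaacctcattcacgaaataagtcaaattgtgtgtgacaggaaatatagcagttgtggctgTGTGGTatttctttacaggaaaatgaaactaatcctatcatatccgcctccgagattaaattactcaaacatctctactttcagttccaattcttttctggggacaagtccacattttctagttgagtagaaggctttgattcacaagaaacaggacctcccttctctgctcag

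RUNX and ETS proteins are transcription factor families active in lymphocytes. The RUNX core stood in 17.3% of all 33469 promoters of this length in the table and in 12 of the 28 member promoters, 42.9%. The ETS-type sequence stood in 34.5% of all promoters and in 14 of the 28 member promoters, 50.0%. Unlike the 28, the 33469 promoters were not limited to symbols with 1 entry. In Cd2 the RUNX core began at -20 from the start on the gene's strand and at 19 on the other strand. The matches of Cd28 began at -120 and, on the other strand, at -31. Klrk1 had 1 match, at -124, and the ETS-type match of Icos lay on the other strand at -59. These matches describe letters in the window and not bound sites.

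The level of the genes was set against the negative controls first. Of the 35 measured genes, 16 stayed at or below the negative control median in all 46 arrays. They were all of the CD3 chains and their signalling partner (Cd3d, Cd3e, Cd3g and Cd247), the kinase gene Zap70, the T cell surface genes Cd5, Cd6 and Cd27, the adaptor gene Sh2d1a, the checkpoint gene Ctla4, the granzyme genes Gzma and Gzmb, the NK receptor gene Ncr1, the type 1 transcription factor gene Tbx21, the cytokine gene Ifng and the homing receptor gene Gpr15. The genes that define a T cell most closely were thus not measurable in any biopsy, so the signals below are described gene by gene and are not read as a number of T cells.

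Cd4 and Cd2 were above the negative control median in all 46 arrays. Cd4 ranged from 8.57 to 17.57 and passed even the 95th percentile of the negative controls in 32 arrays. Cd2 ranged from 6.72 to 10.58. The other 17 genes were above the median in some arrays only. Ptprcap, which encodes a partner of the leukocyte phosphatase CD45, was above it in 42 arrays and Cd28 in 38. Klrk1 was above it in 27 arrays, Icos in 20, and Il2rb, which encodes a receptor chain shared by interleukin 2 and interleukin 15, in 13. The remaining 12 genes were above it in 1 to 7 arrays. At baseline 29 of the 35 genes were at or below the median in every array.

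**Figure D1:**
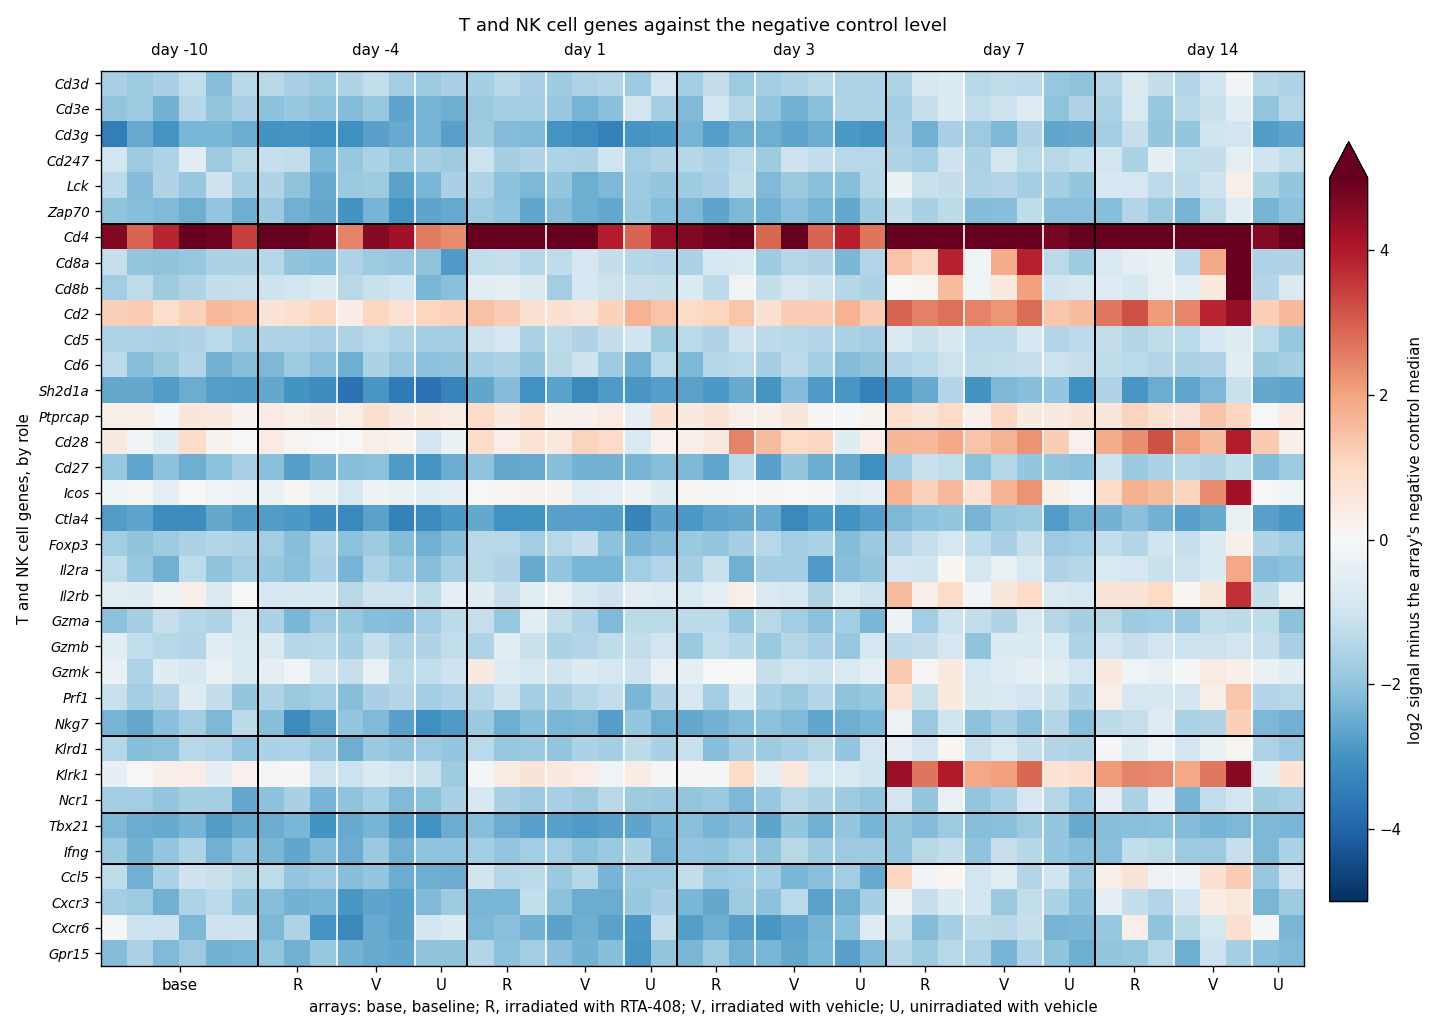
Each cell is the log2 signal of 1 T or NK cell gene on 1 array minus that array's negative control median, with red above and blue below it and colours saturating at 5. Rows are the 35 genes by role, and columns are the arrays by day, with RTA-408, vehicle and unirradiated arrays side by side. Cd4 and Cd2 are red on all arrays, and the CD3 rows are blue throughout. Klrk1, Icos and Cd28 are red on the irradiated arrays of days 7 and 14 and on some others, in all on 27, 20 and 38 arrays.

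Through day 3 few of the genes changed against baseline. In irradiated RTA-408 skin no member was called on day -4 or day 1, where 5.79% and 11.0% of all features were called, and 1 was called lower on day 3, where 4.36% of all features were. Irradiated vehicle skin had 1 member called lower on each of day -4 (4.26% of all features), day 1 (4.65%) and day 3 (3.97%). At an unadjusted p under 0.05, limma gave 1 higher and 1 lower member in RTA-408 skin on day -4, and 2 higher and 1 lower on day 1. The called gene was Cxcr6, which encodes a homing receptor of activated and tissue-resident T cells, each time.

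Cxcr6 had no measurable level in the groups concerned. On day -4 it read 3.25, 3.73 and 3.69 in irradiated vehicle skin and 5.48 and 5.52 in unirradiated skin, while baseline ran from 3.88 to 5.89 with a median of 5.18. All irradiated vehicle arrays lay below all unirradiated and all baseline arrays, yet every one of these arrays was at or below its own negative control median. Cxcr6 was also the only member called between irradiated and unirradiated vehicle skin on day -4 (limma, adjusted p = 0.0471, with 4.19% of all features called lower). The call ended when the spike-in set was a block, and whichever array of the 2 groups was left out. No difference is given for it, since it lies within the range of features that match no transcript.

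Cd4 was the member with the largest early differences in RTA-408 skin that had a measurable level in both groups. On day 1 it read 13.24, 11.95 and 12.67 in irradiated RTA-408 skin and 12.74, 11.30 and 10.09 in irradiated vehicle skin, with 9.44 and 10.48 in unirradiated skin. Baseline ran from 9.33 to 12.07 with a median of 10.34. Only 1 of the RTA-408 arrays lay within the baseline range, and the difference from baseline was 2.19 ± 0.75 (SE), which did not pass the test (limma, adjusted p = 0.056).

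By day 7 a group of T and NK cell genes was higher in irradiated skin of both arms than at baseline. In irradiated RTA-408 skin 10 of the 35 were called higher and none lower, where 9.12% of all features were called higher. The median difference of the members was 0.51, against 0.02 over all features, and 32 of the 35 were above 0. In irradiated vehicle skin 6 of the 35 were called higher and none lower, where 7.92% of all features were called higher, with a median of 0.28 against 0.00 over all features. These medians include 21 genes in RTA-408 skin and 26 in vehicle skin that had no measurable level in either group compared. More cells of a type and more RNA per cell cannot be told apart in these biopsies.

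Klrk1 had the smallest adjusted p in both arms. On day 7 its signal was 10.22, 8.61 and 9.76 in irradiated RTA-408 skin and 7.97, 8.10 and 8.80 in irradiated vehicle skin, with 6.77 and 7.04 in unirradiated skin. At baseline it ran from 5.56 to 6.54 with a median of 6.35. All irradiated arrays were above all unirradiated arrays, which were in turn above all baseline arrays. It averaged 9.53 ± 0.83 in RTA-408 skin and 6.16 ± 0.42 at baseline (SD, n = 3 and 6), a difference of 3.37 ± 0.41 (SE; limma, adjusted p = 4.39e-07). In vehicle skin it averaged 8.29 ± 0.45, a difference of 2.13 ± 0.41 from baseline (limma, adjusted p = 0.000307). Of its relatives, Klrd1, which encodes the CD94 chain of NK receptors, was called in RTA-408 skin (limma, adjusted p = 0.00189), but only 1 of the 3 arrays was above its negative control median and no size is given. Ncr1 had no measurable level.

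The coreceptor gene Cd4 and the adhesion gene Cd2 rose in both irradiated arms. Cd4 read 14.17, 13.11 and 14.02 in irradiated RTA-408 skin and 13.00, 12.55 and 13.04 in irradiated vehicle skin on day 7, with 10.84 and 11.41 in unirradiated skin. Every irradiated array exceeded the highest baseline array of 12.07. The differences from baseline were 3.33 ± 0.75 in RTA-408 skin and 2.43 ± 0.75 in vehicle skin (SE; limma, adjusted p = 0.00164 and 0.0255). Cd2 read 8.86, 8.46 and 8.54 in RTA-408 skin and 8.51, 8.25 and 8.72 in vehicle skin, with 7.44 and 7.81 in unirradiated skin and 7.14 to 7.74 at baseline. Its irradiated arrays again lay above all others of that day and of baseline, by 1.19 ± 0.28 in RTA-408 skin and 1.06 ± 0.28 in vehicle skin (SE; limma, adjusted p = 0.00285 and 0.00882).

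Cd8a, the CD8 alpha chain of cytotoxic T cells, had no measurable level at baseline, where it ran from 4.20 to 4.85. On day 7 it read 7.39, 6.97 and 9.62 in irradiated RTA-408 skin and 5.86, 7.90 and 9.76 in irradiated vehicle skin, with 4.74 and 4.47 in unirradiated skin. All RTA-408 arrays and 2 of the 3 vehicle arrays were above their negative control medians, and the spread within each arm was wide. It was at least 1.82 higher than baseline in RTA-408 skin and at least 1.67 higher in vehicle skin (limma, adjusted p = 0.0208 and 0.031). Cd8b, the partner chain, read 5.93, 6.08 and 7.37 in RTA-408 skin and 5.83, 6.52 and 7.97 in vehicle skin, and was not called.

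Of the costimulation genes, Icos and Cd28 were called in both arms on day 7. ICOS and CD28 both deliver the second signal that T cell activation needs, CD28 on resting T cells and ICOS after activation. Icos read 7.69, 7.10 and 7.42 in irradiated RTA-408 skin and 6.77, 7.76 and 8.14 in irradiated vehicle skin, with 6.38 and 6.15 in unirradiated skin and 5.77 to 6.35 at baseline. The irradiated arrays did not overlap with the others, and the gene was at least 1.23 higher than baseline in RTA-408 skin and at least 1.39 higher in vehicle skin (limma, adjusted p = 0.00476 and 0.00212). Cd28 read 7.61, 7.55 and 7.69 in RTA-408 skin and 7.45, 7.79 and 8.17 in vehicle skin, with 7.30 and 6.48 in unirradiated skin and 5.75 to 7.02 at baseline. The 3 RTA-408 arrays lay close together, and 1 unirradiated array also exceeded the whole baseline range. The differences of Cd28 from baseline were 1.31 ± 0.40 and 1.50 ± 0.40 in RTA-408 and vehicle skin (SE; limma, adjusted p = 0.0199 and 0.00831).

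Of the 5 granule genes, Gzmk and Prf1 were called against baseline in irradiated RTA-408 skin and none in irradiated vehicle skin, while no granule gene was called between these arms. GZMK is a granzyme of memory-like T cells and PRF1 is the pore-forming protein perforin. Gzmk read 7.25, 5.98 and 6.25 in irradiated RTA-408 skin and 5.15, 5.39 and 5.43 in irradiated vehicle skin, with 5.52 and 5.28 in unirradiated skin and 4.88 to 5.80 at baseline. The RTA-408 arrays alone were above the negative controls, by at least 0.32 over baseline (limma, adjusted p = 0.00167). Prf1 read 6.65, 4.80 and 6.25 in RTA-408 skin, with 1 array inside the baseline range of 4.16 to 5.46, and is given no size (limma, adjusted p = 0.0343). Ccl5, which encodes a chemokine that activated T and NK cells release, read 6.98, 5.81 and 5.88 in RTA-408 skin and 5.09, 5.49 and 4.47 in vehicle skin. It was at least 0.06 higher than baseline in RTA-408 skin, a bound that was not tested, while the deposited signals passed (limma, adjusted p = 0.00106).

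**Figure D2:**
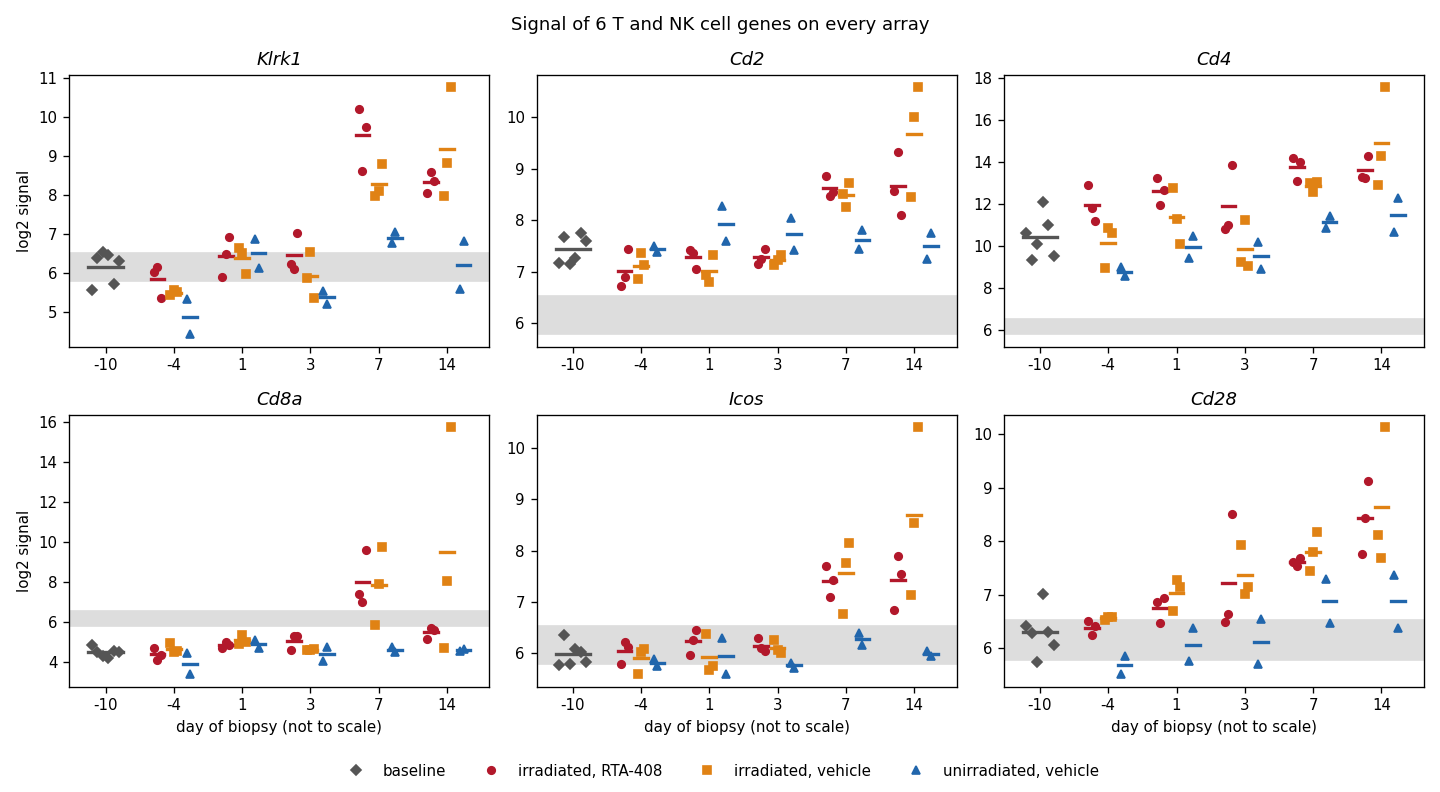
Log2 signals of 6 genes are plotted for every array against the day of biopsy, with days evenly spaced, short bars for group means, and a grey band for the range of the arrays' negative control medians, 5.78 to 6.52. All irradiated arrays of days 7 and 14 lie above the baseline arrays, except in Cd8a on day 14, and 1 vehicle array of day 14 stands far above the other 2 in Cd8a, at 15.77 against 4.70 and 8.06.

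None of the 35 genes was called between irradiated and unirradiated vehicle skin on day 7, where 4.02% of all features were called. The members' median difference was 0.29, against -0.06 over all features, and 28 of the 35 were above 0. The 35 include the 16 genes without a measurable level in any array. In 14 of the 35 all irradiated arrays lay above both unirradiated arrays, which held for 16.6% of all features. At an unadjusted p under 0.05, limma gave 4 members higher. Other fits called 2 members higher, namely Cd8a and Icos with array weights, Cd4 and Klrk1 when no other groups entered the fit, and Cd4 and Cd8a with the replicate number as a block. Without replicate 1 of irradiated vehicle skin Icos was called. The highest were Cd8a, at least 1.67 higher (limma, adjusted p = 0.202), and Cd4, with a difference of 1.74 ± 0.97 (SE; limma, adjusted p = 0.357). Klrk1 had a difference of 1.39 ± 0.53 (SE; limma, adjusted p = 0.137). The lowest differences were those of Nkg7 and Cd6, which had no measurable level in either group.

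The spike-in sets bear on the comparison of days 7 and 14 with baseline, because no set held both. With the set as a block the comparison hangs on the 10 arrays of set II, 1 for each irradiated arm and day. Of the 10 members called in irradiated RTA-408 skin on day 7, 1 was then called, Klrk1, with a difference of 2.94 ± 0.55 (SE; limma, adjusted p = 0.00253). The differences of the other genes called in both arms were then 3.28 for Cd4, 1.11 for Cd2, 1.05 for Cd28 and 1.35 for Icos in that skin. In vehicle skin none of the 6 was called with the block, and the set's part in these results was not tested further. Without the block, Cd4, Cd2, Icos, Klrd1, Klrk1 and Ccl5 were called in RTA-408 skin whichever array was left out, while Cd8a, Cd28, Gzmk and Prf1 were not. In vehicle skin this held for Icos and Klrk1, with 2 members called without replicate 3 and 4 without replicate 2.

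On day 14 the largest number of members was called. Irradiated vehicle skin had 18 of the 35 called higher than unirradiated vehicle skin and none lower, where 4.43% of all features were called higher. All 35 differences were above 0, with a median of 0.98 against 0.01 over all features. These include the 16 genes that had no measurable level in any array, and Cd3g, one of the 18 called, is among those 16. In 21 of the 35 all irradiated arrays lay above both unirradiated arrays, against 13.3% of all features. Called were 2 of 6 genes of the T cell receptor complex, 5 of 8 coreceptor and pan-T genes, 5 of 7 costimulation and checkpoint genes, 2 of 5 granule genes, 2 of 3 NK receptor genes, and 2 of 4 chemokine and homing genes. Neither of the type 1 genes measured, Tbx21 and Ifng, was called.

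The count depended on the fit and on 1 array. The shares of all features called in the other fits of this paragraph are not given here. When limma was fitted to these 2 groups only, none of the 18 was called, nor was any with the replicate number as a block, with 8 and 14 members higher at an unadjusted p under 0.05. How many of all features passed that p in these 2 fits is not given here. Without replicate 3 of irradiated vehicle skin, 5 members were called higher, Cd2, Icos, Klrk1, Ccl5 and Cxcr3, and the median difference was 0.59. The number was 1 (Icos) without replicate 1 of unirradiated skin and 10 without its replicate 2, and 22 without replicate 1 of irradiated vehicle skin. In the fit of all groups Icos alone was called whichever array was left out, with an adjusted p of 0.0377 at most in limma. Within spike-in set III, which held both unirradiated arrays and 2 of the 3 irradiated ones, 17 members were called, 15 of them among the 18.

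Icos read 7.12, 8.54 and 10.42 in irradiated vehicle skin on day 14, against 6.03 and 5.94 in unirradiated skin. Every irradiated array was above the negative controls and neither unirradiated array was. The difference was at least 2.59 (limma, adjusted p = 0.000691). Cd2 read 8.45, 9.99 and 10.58 in irradiated vehicle skin and 7.25 and 7.76 in unirradiated skin, again without overlap, a difference of 2.17 ± 0.37 (SE; limma, adjusted p = 0.000575). Klrk1 read 7.98, 8.81 and 10.77 in irradiated vehicle skin and 5.58 and 6.82 in unirradiated skin, a difference of 2.98 ± 0.53 (SE; limma, adjusted p = 0.000751). In all of these replicate 3 was the highest array, but the lowest irradiated array also lay above both unirradiated ones.

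The CD8 genes on day 14 were carried by single arrays. Cd8a read 4.70, 8.06 and 15.77 in irradiated vehicle skin and 4.51 and 4.65 in unirradiated skin, so that the lowest irradiated array had no measurable level. Cd8b read 5.54, 6.65 and 12.69 in irradiated vehicle skin and 4.58 and 5.42 in unirradiated skin. They were at least 3.41 and at least 2.19 higher (limma, adjusted p = 0.0255 and 0.0274), and neither was called without replicate 3. On the array where Cd8a stood at 15.77, Cd3e stood at 5.66 and Cd3g at 5.27. These were the highest values of both genes over the 46 arrays, yet both were at or below the negative control median.

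Cd4 read 12.93, 14.27 and 17.57 in irradiated vehicle skin on day 14, against 10.66 and 12.30 in unirradiated skin, and Cd28 read 8.12, 7.70 and 10.14 against 7.38 and 6.39. The differences were 3.44 ± 0.97 and 1.77 ± 0.51 (SE; limma, adjusted p = 0.0257 and 0.0306), and neither was called without replicate 3. Ptprcap read 6.74, 7.60 and 7.32 in irradiated vehicle skin and 6.03 and 6.52 in unirradiated skin, a difference of 0.94 ± 0.26 (SE; limma, adjusted p = 0.0241). The interleukin 2 receptor genes followed, with Il2rb at 6.13, 6.73 and 9.88 against 4.86 and 5.83, and Il2ra at 4.99, 5.50 and 8.17 against 3.88 and 4.08. Il2rb was at least 1.48 higher and Il2ra at least 0.12 higher (limma, adjusted p = 0.0135 and 0.00739). Foxp3, the factor that defines regulatory T cells, was above the negative controls on replicate 3 alone, at 6.47, as were the kinase gene Lck at 6.50 and the granule gene Nkg7 at 7.43 within their groups.

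Among the effector and homing genes of day 14, Prf1 read 5.10, 6.48 and 7.61 in irradiated vehicle skin and 4.57 and 4.78 in unirradiated skin and was at least 0.30 higher (limma, adjusted p = 0.0181). Ccl5 read 5.74, 6.93 and 7.49 in irradiated vehicle skin, against 4.16 and 5.13 in unirradiated skin, and was at least 0.62 higher (limma, adjusted p = 0.00294). Cxcr3, which encodes the receptor for interferon-induced chemokines on effector T and NK cells, read 5.07, 6.55 and 6.76 in irradiated vehicle skin and 3.75 and 4.37 in unirradiated skin. It was at least 0.02 higher (limma, adjusted p = 0.00222). For both genes the 2 higher irradiated arrays were above the negative controls and the third was not. Klrd1 and Cd3g completed the 18, with a single array above the negative controls in Klrd1 and none in Cd3g.

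Against baseline, irradiated vehicle skin of day 14 had 24 of the 35 called higher, where 9.47% of all features were called higher, and 6 of the 24 had no measurable level in either group. The number was 11 without replicate 3 and 7 with the spike-in set as a block, namely Cd4, Cd2, Cd28, Icos, Il2ra, Klrk1 and Ccl5. Irradiated RTA-408 skin had 9 called higher, where 5.53% of all features were called higher, of which Cd3g, Klrd1 and Ncr1 had no measurable level in either group. The 6 others were Cd4, Cd2, Cd28, Icos, Klrk1 and Ccl5, and none of them was called with the spike-in set as a block. Cd28 read 7.77, 8.43 and 9.13 in RTA-408 skin, all above the baseline range of 5.75 to 7.02, a difference of 2.14 ± 0.40 (SE; limma, adjusted p = 0.000407). Klrk1 read 8.05, 8.59 and 8.36 in RTA-408 skin, all below its 3 values of day 7 in that arm, and differed from baseline by 2.17 ± 0.41 (SE; limma, adjusted p = 0.000448). Cd4 read 13.27, 13.23 and 14.29, a difference from baseline of 3.17 ± 0.75 (SE; limma, adjusted p = 0.00479).

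Unirradiated vehicle skin had no member called against baseline on any of the 5 days. Of all features 0.0173%, 0.315%, 0.0%, 2.71% and 0.0% were called on days -4, 1, 3, 7 and 14. At an unadjusted p under 0.05, limma gave at most 3 members on any of these days, on day -4, all of them lower. On day 7 the highest measurable difference was that of Klrk1, 0.74 ± 0.47 (SE; limma, adjusted p = 0.433).

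The radiation effect changed over the 5 days in 3 of the 35 genes. By limma's F-test over the days these were Cd2 (adjusted p = 0.0051), Cxcr3 (adjusted p = 0.0191) and Icos (adjusted p = 0.0485), where 2.16% of all features were called. Without replicate 3 of irradiated vehicle skin on day 14 the test called Cd2 (adjusted p = 0.00758) and Cxcr3 (adjusted p = 0.0452) but not Icos (adjusted p = 0.0562). Without rat 320 on all days it called Cd2 alone (adjusted p = 0.0425). Cd2 shows the course. On day 1 it read lower in irradiated vehicle skin than in unirradiated skin, with means of 7.02 and 7.93, and the -0.91 ± 0.37 between them missed the threshold (SE; limma, adjusted p = 0.177). On day 7 its difference was 0.87 ± 0.37 (SE; limma, adjusted p = 0.19) and on day 14 it was called. On days 1 and 3 no member was called between irradiated and unirradiated vehicle skin, where 2.1% and 1.3% of all features were called, with member medians of -0.24 and -0.02. At an unadjusted p under 0.05, limma gave 3 members lower on day 1, and 1 higher and 1 lower on day 3. The highest differences were those of Cd4 on day 1, 1.41 ± 0.97, and Cd28 on day 3, 1.24 ± 0.51 (SE; limma, adjusted p = 0.528 and 0.257).

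RTA-408 was compared with vehicle in irradiated skin, which asks whether the drug altered these genes under radiation. No member was called on any day. Of all features 0.0474%, 0.0733%, 0.00431%, 0.0% and 0.0% were called on days -4, 1, 3, 7 and 14, so few features of any kind passed. At an unadjusted p under 0.05, limma gave 1, 1, 2 and 3 members higher on days -4, 1, 3 and 7 and none lower, and 9 lower and none higher on day 14. The members' medians were -0.03, 0.22, 0.10, 0.13 and -0.49 on these days, with medians over all features between -0.02 and 0.02. The drug effect changed over the 5 days in none of the members by limma's F-test, and in 0.0129% of all features. With 3 rats per arm a p that misses the threshold does not show that the arms were alike.

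Cd4 was the member with the highest difference on days -4, 1 and 3. On day -4 it read 12.91, 11.79 and 11.20 in RTA-408 skin and 8.95, 10.86 and 10.60 in vehicle skin, without overlap. On day 3 it read 10.79, 11.02 and 13.87 in RTA-408 skin and 9.21, 11.25 and 9.03 in vehicle skin, where the arms overlapped. The differences were 1.83 ± 0.87 on day -4, 1.24 ± 0.87 on day 1 and 2.06 ± 0.87 on day 3 (SE; limma, adjusted p = 1.00 on each day). Averaged over the 5 days per rat, Cd4 was 12.77 ± 0.50 in RTA-408 rats and 11.83 ± 0.40 in vehicle rats (SD, n = 3 each), and the 0.94 ± 0.28 between them missed the threshold (SE; limma, adjusted p = 1.00). Without rat 320 the vehicle rats averaged 11.71 ± 0.48 (SD, n = 2) and the difference was 1.06 ± 0.31 (SE; limma, adjusted p = 1.00). By that measure no member was called, and 0.0% of all features were. The lowest differences of these days lay in genes without a measurable level in either arm, except Cd28 on day 1 with -0.28 ± 0.46 (SE; limma, adjusted p = 1.00).

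On day 7 the highest member differences were those of Klrk1, 1.24 ± 0.47 (SE; limma, adjusted p = 1.00), and Ccl5, at least 0.23 (limma, adjusted p = 1.00). The values of Klrk1 given above overlap between the arms by 1 array. The lowest measurable difference was that of Cd8b, -0.32 ± 0.84 (SE; limma, adjusted p = 1.00). In 3 members all RTA-408 arrays lay above all vehicle arrays, where 4.69% of all features did.

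On day 14 all but 2 of the 35 differences were below 0, the 16 genes without a measurable level in any array included. The CD8 genes were lowest. Cd8a read 5.14, 5.69 and 5.60 in RTA-408 skin and 4.70, 8.06 and 15.77 in vehicle skin, and Cd8b read 5.29, 5.31 and 5.57 in RTA-408 skin and 5.54, 6.65 and 12.69 in vehicle skin. Neither gene had a measurable level in RTA-408 skin on that day, though Cd8a had on day 7. They were lower by at least 3.51 and 2.30, which did not pass (limma, adjusted p = 0.231 and 0.205). In no member were the arms free of overlap, where 5.02% of all features were lower without overlap. The member median was -0.10 without replicate 3 of vehicle skin and -0.83 without replicate 1. In that last case 10 members were called lower, Cd8a, Cd8b, Cd2 and Icos among them. That fit kept replicate 3, the array where Cd8a stood at 15.77, and the share of all features called in it is not given here. The 10 calls are therefore not read as a drug effect. The 2 differences above 0 were those of Ncr1 and Tbx21, which had no measurable level.

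**Figure D3:**
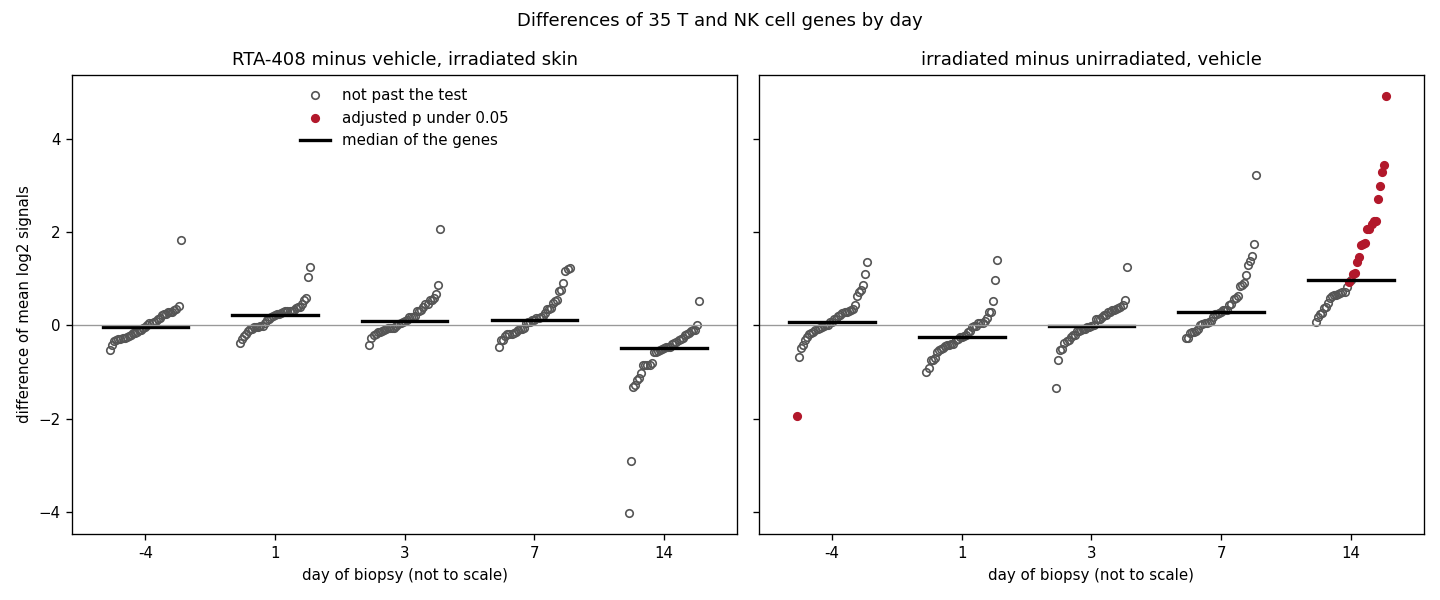
Each point is the difference of group means in log2 signal for 1 of the 35 genes, sorted within each day, with a bar at the median and filled points where limma's adjusted p was under 0.05. In irradiated skin RTA-408 minus vehicle has no filled point and a median of -0.49 on day 14, and irradiated minus unirradiated vehicle skin has 18 filled points on day 14 and a median of 0.98. The 1 filled point of day -4 is Cxcr6.

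Other genes of T and NK cells, came from a longer list of which 38 of 46 were measured. On day 7 they counted 5 higher and 2 lower against baseline in irradiated RTA-408 skin, where 9.12% of all features were called higher and 6.67% lower. In irradiated vehicle skin they counted 6 higher and 2 lower, where 7.92% were called higher and 6.06% lower, so the lower counts were near the background. Il7r, which encodes the receptor for the survival cytokine interleukin 7, averaged 8.75 ± 0.69 in RTA-408 skin, 9.02 ± 0.26 in vehicle skin and 6.01 ± 0.55 at baseline (SD, n = 3, 3 and 6). Its differences from baseline were 2.74 ± 0.47 and 3.01 ± 0.47 in RTA-408 and vehicle skin (SE; limma, adjusted p = 7.18e-05 and 2.39e-05). Il2rg, the gamma chain that interleukin 2, 7 and 15 receptors share, was higher by 2.07 ± 0.54 in RTA-408 skin and by 1.94 ± 0.54 in vehicle skin (SE; limma, adjusted p = 0.00582 and 0.0114). Lcp2, which encodes the adaptor SLP-76, was higher by 2.14 ± 0.46 and 1.85 ± 0.46 (SE; limma, adjusted p = 0.000879 and 0.00426).

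The 2 lower genes on day 7 were Lef1 and Gata3, transcription factor genes that T cells share with the hair follicle and epidermis. Gata3 averaged 12.39 ± 0.42 in irradiated RTA-408 skin, 12.55 ± 1.29 in irradiated vehicle skin and 15.21 ± 0.45 at baseline (SD, n = 3, 3 and 6). Lef1 was lower than baseline already on day -4, by 3.65 in RTA-408 skin and 4.76 in vehicle skin, with means of 7.60, 6.49 and 11.25 (limma, adjusted p = 0.0275 and 0.00219). On day 14, Klrc1, which encodes an NKG2 partner of CD94, averaged 8.05 ± 1.36 in irradiated vehicle skin and 4.77 ± 0.04 in unirradiated skin (SD, n = 3 and 2), at least 1.95 higher (limma, adjusted p = 0.000716), and it was called without replicate 3 too (limma, adjusted p = 0.0114). In that comparison 8 of the 38 were called higher, against 4.43% of all features, and 1 lower, against 2.53%. Without replicate 3 the counts were 3 higher and 0 lower.

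Of the chemokines and cytokines that attract or sustain T and NK cells, 15 of 16 listed genes were measured, and several were called from the first days on. On day 7, 9 were called higher and 1 lower against baseline in each irradiated arm. Of all features 9.12% were called higher and 6.67% lower in RTA-408 skin, and 7.92% and 6.06% in vehicle skin. Without rat 320 on all days vehicle skin had 6 higher and 0 lower. Between irradiated and unirradiated vehicle skin 2 were called higher and 1 lower, where 4.02% of all features were called. Unirradiated skin had 2 called higher than baseline, where 2.71% of all features were called. Ccl20, which draws cells bearing CCR6, averaged 12.51 ± 0.21 in irradiated RTA-408 skin, 11.50 ± 1.18 in irradiated vehicle skin and 7.70 ± 0.52 at baseline on day 3 (SD, n = 3, 3 and 6; limma, adjusted p = 2.67e-07 and 1.24e-05). Il18, a cytokine that activates NK and type 1 T cells, was higher than baseline on day -4 by 2.11 ± 0.40 and 2.16 ± 0.40 in RTA-408 and vehicle skin (SE; limma, adjusted p = 0.00109 and 0.000517). Cxcl10, a ligand of CXCR3, averaged 9.88 ± 0.41, 8.30 ± 1.60 and 6.24 ± 0.27 on day 7 in RTA-408 skin, vehicle skin and at baseline (SD; limma, adjusted p = 4.76e-06 and 0.00526). Ccl27, a keratinocyte chemokine for skin-homing T cells, was the lower one, by 3.71 ± 0.76 and 2.64 ± 0.76 below baseline on day 7 in RTA-408 and vehicle skin (SE; limma, adjusted p = 0.000576 and 0.0152).

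Gpr15lg, which encodes the ligand of the homing receptor GPR15, had the largest change on that list. It averaged 14.21 ± 0.39 in irradiated RTA-408 skin, 14.23 ± 0.90 in irradiated vehicle skin and 4.72 ± 0.44 in unirradiated skin on day 7 (SD, n = 3, 3 and 2). Baseline was 4.67 ± 0.63 (SD, n = 6), so that the ligand gene was at least 8.04 and 8.06 higher than baseline in RTA-408 and vehicle skin, and at least 8.06 higher than unirradiated skin in vehicle skin (limma, adjusted p = 1.73e-09, 2.1e-09 and 1.73e-06). Gpr15 itself read 4.54, 4.16 and 4.39 in RTA-408 skin and 4.48, 3.73 and 4.38 in vehicle skin on that day, with 4.07 and 3.81 in unirradiated skin, none of them above the negative controls.

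Markers of several other leukocytes and of some other skin cells, though not of all, were also higher where the T and NK cell genes were. Of all features, 9.12% and 7.92% were called higher than baseline on day 7 in irradiated RTA-408 and vehicle skin. Of the macrophage and monocyte genes, 12 of 12 were called higher in both arms. Between irradiated and unirradiated vehicle skin 4.02% of all features and 7 of 12 of these genes were called. Their mean per array was 12.80, 12.17 and 12.83 in irradiated RTA-408 skin and 11.44, 12.04 and 12.93 in irradiated vehicle skin on day 7, with 9.55 and 9.29 in unirradiated skin and 8.31 to 9.69 at baseline. On day 14 it was 11.59, 11.11 and 11.91 in RTA-408 skin, 11.11, 12.24 and 15.63 in vehicle skin, and 8.74 and 9.73 in unirradiated skin, with 12 of 12 called between irradiated and unirradiated vehicle skin, and 10 of 12 without replicate 3. The T and NK cell mean on day 14 was 5.50, 5.73 and 5.52 in RTA-408 skin, 5.29, 6.08 and 7.44 in vehicle skin, and 4.80 and 4.95 in unirradiated skin. The vehicle array that was highest in one was highest in the other.

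Pan-leukocyte genes followed a similar course against baseline, with 6 of 7 called higher on days 7 and 14 in both irradiated arms. Without replicate 3 it was 5 of 7 in vehicle skin on day 14. Of all features 5.53% and 9.47% were called higher on day 14 in RTA-408 and vehicle skin. Between irradiated and unirradiated vehicle skin on day 7, 0 of 7 pan-leukocyte, 2 of 6 neutrophil and 0 of 5 red blood cell genes were called. There it was 2 of 3 for keratinocyte and 1 of 6 for fibroblast genes, where 4.02% of all features were called. On day 14 it was 5 of 7 for pan-leukocyte genes, where 4.43% of all features were called higher. Leaving out replicate 3 of irradiated vehicle skin gave 4 of 7. Ptprc, which encodes CD45, averaged 11.53 ± 0.70 in irradiated RTA-408 skin, 10.95 ± 0.85 in irradiated vehicle skin and 8.30 ± 0.65 at baseline on day 7 (SD, n = 3, 3 and 6). Of 6 neutrophil genes, 4 were called higher in each irradiated arm on day 7. The 3 measured B and plasma cell genes were not called in any of these comparisons, and their mean stayed between 4.18 and 4.95 over all 46 arrays. Of 7 mast cell genes, 0 were called on day 7 in RTA-408 skin against baseline, and 1 higher and 1 lower in vehicle skin. On day 14 these counts were 0 higher and 1 lower, and 1 higher and 3 lower. Among all features tested, 1092 were called lower than baseline on day 14 in RTA-408 skin and 1383 in vehicle skin. Without replicate 3 of irradiated vehicle skin the mast cell counts in vehicle skin were 0 higher and 2 lower. Of 4 Langerhans and dendritic cell genes, 1 was called higher on day 7 in RTA-408 skin and 0 in vehicle skin. Some lists of cells other than leukocytes were higher on day 7 as well, while 0 of 6 skeletal muscle genes were called. Red blood cell genes averaged 13.49 ± 0.78 in irradiated RTA-408 skin, 13.46 ± 0.40 in irradiated vehicle skin, 11.30 ± 0.03 in unirradiated skin and 11.58 ± 0.66 at baseline (SD, n = 3, 3, 2 and 6), with 4 of 5 called higher than baseline in each irradiated arm. Of 3 keratinocyte genes all were called higher than baseline in each irradiated arm, with list means of 17.35 ± 0.14, 17.32 ± 0.32, 16.22 ± 0.02 and 15.40 ± 0.57 in the same order of groups. Of 6 fibroblast genes 3 were called higher in each irradiated arm, with list means of 17.42 ± 0.13, 17.33 ± 0.13, 16.91 ± 0.33 and 16.23 ± 0.49. The part of these other cells in the T and NK cell results was not tested, which bears above all on Cd4, a gene that macrophages of the rat carry too.

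**Figure D4:**
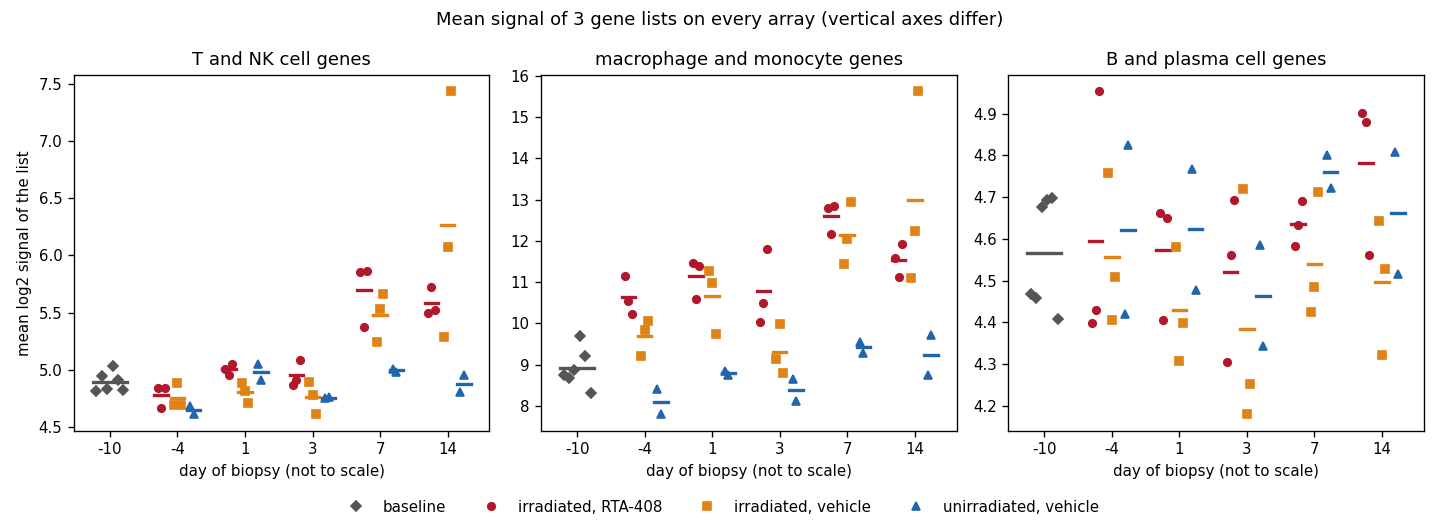
The mean log2 signal of 3 gene lists is plotted for every array against the day of biopsy, with bars for group means and a separate vertical scale in each panel. T and NK cell genes and macrophage and monocyte genes are both higher in irradiated skin on days 7 and 14 and both reach their highest value, 7.44 and 15.63, on the same vehicle array of day 14, while B and plasma cell genes stay between 4.18 and 4.95.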

How the data were processed

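The values used are the authors' deposited log2 signals, 1 for each feature on each array, and the sources used here do not give how they were normalized. Per the labels' protocols, 100 ng RNA (mean RIN 7.15) was labelled and 2.5 ug cDNA hybridized per array. They were used as deposited. Of the 24834 features in the table, 1646 were controls and took no part in the tests. The supplied annotation gave 15049 features 1 symbol and 8139 none, and a gene with several features was read from the brightest. The members and lists were chosen with earlier results of these data known.

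All 46 arrays were fitted with limma 3.58.1 in R 4.3.3, with 1 mean for each of 16 groups, moderated variances and Benjamini-Hochberg adjustment over 23188 features. Changes of an effect over days used the moderated F-test. For 1 array a description names another day than its title, and the title was followed. Members called in a comparison are described, or the 2 highest and 2 lowest where none was, and of other lists up to 4 called genes. Replicate numbers stand for different rats and do not pair the arms (correlations of deviations -0.38 to 0.25). The scripts were tested on simulated data. The number of arrays limits the precision. Alternatives were array weights, a filter on dim features, quantile normalization, blocks for rat, replicate number and spike-in set, fits of the compared groups alone and leaving out arrays. The spike-in sets and leaving out rat 320 on all days were chosen after seeing the data. Raw scans were not analysed here.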

Additional observations from a re-analysis of the deposited data

Results flagged for a closer look

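Values of 2 members at baseline lay apart from the other 5 arrays of that group, in genes with no measurable level there. Ncr1 stood at 3.53 in replicate 6, with the others between 4.29 and 4.70. Ccl5 stood at 4.01 in replicate 2, with the others between 4.70 and 5.07. Such a gap arises by chance in about 1 of 20 groups.

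The radiation effect under vehicle differed between the 5 days in 3 members by limma's F-test, with adjusted p-values of 0.0051 for Cd2, 0.0191 for Cxcr3 and 0.0485 for Icos. Without replicate 3 of irradiated vehicle skin on day 14 they were 0.00758, 0.0452 and 0.0562, and without rat 320 on all days 0.0425, 0.134 and 0.183. In each the difference on day 14 was the one that passed the test on its own.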

How the results depend on the processing

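Counts below are members called of 35, higher and lower together. The shares of all features called in the same fits are not given here, so the counts do not show whether the members moved apart from the other features. No called result changed its direction under the alternatives run. Of the recomputed counts 347 equalled the main count or stayed within 1.5 times it, while 78 did not. The 347 include counts that were 0 in both fits, so they do not measure how firmly called results held. The recomputed counts cover the comparisons, the tests over days, the per-rat test and the negative control level. The per-rat RTA-408 minus vehicle differences of Cd8a, Cd8b, Cd2 and Icos, none of them called, were 0.01, 0.13, 0.02 and 0.03 without rat 320, against -0.79, -0.45, -0.14 and -0.19 with it. Leaving out the dimmest 25% of features left 17 members and gave 0 for irradiated against unirradiated vehicle skin on day -4, and against baseline 0 for vehicle skin on days -4, 1 and 3, 1 for RTA-408 skin on day 1, 0 on day 3, and 15 for vehicle skin on day 14. Array weights gave against baseline 3 and 2 for RTA-408 skin on days 1 and 3, 3 and 12 for vehicle skin on days 3 and 7, 1 for unirradiated skin on day 7, and 2 between irradiated and unirradiated skin on day 7.

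The spike-in set as a block gave 0 for irradiated against unirradiated skin on day -4, and against baseline 1, 0, 1 and 0 for RTA-408 skin on days 1, 3, 7 and 14, and 0, 0, 0, 0 and 7 for vehicle skin on days -4, 1, 3, 7 and 14. Within set I the count for vehicle skin against baseline on day -4 was 0. The compared groups alone gave 2, 2 and 0 between irradiated and unirradiated skin on days -4, 7 and 14, and against baseline 2 for RTA-408 skin on day 1, and 2 and 8 for vehicle skin on days 3 and 14. The replicate number as a replicate block gave 2 and 0 between irradiated and unirradiated skin on days 7 and 14 and moved no other count past 1.5 times. The rat as a random block moved none. Without rat 320 on all days the counts were 0 and 5 between irradiated and unirradiated skin on days -4 and 14, 1 for RTA-408 skin against baseline on day 1, and 0, 0, 0 and 12 for vehicle skin against baseline on days -4, 1, 3 and 14, and the radiation effect changed over the days in 1 member. Without the day 14 array of that rat the effect changed in 2, and both of these F-tests were chosen after the data were seen. At the 95th percentile of the negative controls 6 members were above in at least 1 array.

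Leaving out 1 array at a time gave 0 to 10 for RTA-408 against vehicle on day 14, 0 on day -4, 0 to 1 on day 7 and 1 to 22 on day 14 for irradiated against unirradiated skin, 0 to 2, 0 to 1, 7 to 10 and 6 to 9 for RTA-408 skin against baseline on days 1, 3, 7 and 14, and 0 to 1, 0 to 1, 0 to 3, 2 to 6 and 11 to 29 for vehicle skin against baseline on days -4, 1, 3, 7 and 14. Except where the text names an array or fewer features were tested, the cause was not tested. With 2 or 3 arrays per group and most members at the negative control level, small differences were not detectable.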
